A study of Mus musculus with 12 samples.

Results

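The genes described here are the Fat and Dachsous atypical cadherins and the polarity genes linked to them upstream of the Hippo pathway. They were taken by gene symbol from a list, not by a threshold on their values, and the list was drawn up with earlier results of these data known: Fat1, Fat3, Fat4, Dchs1, Fjx1 and Dlg5, 6 of the 23829 genes listed at 20 weeks and of the 23777 listed at 28 weeks. All 6 were listed at both ages. Their transcripts were counted by RNA sequencing of primary mouse podocytes, and all groups came from the HFD/STZ model of diabetes (high-fat diet plus streptozotocin). The knockout mice (genotype Cre+/Nsd2fl/fl) are labelled as having a podocyte-specific deletion of Nsd2, which encodes a histone H3 lysine 36 methyltransferase, and the floxed controls (Cre-/Nsd2fl/fl) carried the same alleles without Cre. Knockouts and controls of 20 weeks of age, the early stage, and knockouts and controls of 28 weeks, the advanced stage, gave 4 groups of 3 libraries each. The Cre driver is not named in the labels, and there was no group of non-diabetic mice. Nothing in the labels ties libraries to separate animals. The p-values therefore cover only the spread among libraries, which may be technical.

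Fat and Dachsous proteins are among the largest cadherins. A Fat protein on one cell binds a Dachsous protein on its neighbour, and the Golgi kinase Four-jointed, known from Drosophila, phosphorylates the cadherin domains of both and so tunes the binding. In Drosophila this pair aligns cells within the plane of a tissue and restrains growth through Hippo signalling, which keeps the coactivator YAP out of the nucleus. In the mouse, FAT1 lies at the slit diaphragm of podocytes, and Fat4 and Dchs1 act together in kidney development.

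Total counts per library ran from 31405349 to 38989180. Knockouts and controls did not overlap in Nsd2, the targeted gene, at either age: 43.9 ± 8.68 against 79.6 ± 14.8 CPM at 20 weeks (log2 fold change -0.88, edgeR adjusted p = 0.0402) and 37.3 ± 5.37 against 82.3 ± 2.55 CPM at 28 weeks (-1.11, adjusted p = 0.00431; SD, n = 3 each). The 20-week call held without knockout 1 and ended without any of the other 5 libraries (adjusted p = 0.0729 to 0.164). Nsd2 reads thus remained in the knockouts, at a fitted 0.545 of the control level at 20 weeks and 0.463 at 28 weeks. CPM stands for read counts scaled to library size, with TMM scaling over all 12 libraries. Podocyte genes were present in every library, with Podxl between 145 and 742 CPM and Wt1 at 28.6 CPM or more, while Nphs1 lay between 0.929 and 14.8 CPM. Markers of tubule and other epithelium were present too. The summed level of 13 of them was 505 to 2440 CPM in knockouts and 4170 to 7190 CPM in controls at 20 weeks, and 213 to 7660 CPM in knockouts and 4960 to 8550 CPM in controls at 28 weeks. Knockout library 1 had the highest such sum of the knockouts at both ages. At 28 weeks 5380 of its 7660 CPM was Krt8 alone, which was at 108 to 2430 CPM in controls. Without Krt8 its sum was 2280 CPM, against 4860 to 6130 CPM in controls, and 7 of its 13 markers lay below every control, 3 within the control range and 3 above it. This sum without Krt8 was chosen after seeing the data. The closest pair of libraries within a group was controls 2 and 3 of 28 weeks, with a biological coefficient of variation of 0.0472 against 0.225 to 0.413 in the other 11 pairs. Results at 28 weeks are therefore also given with the counts of these libraries summed where that changed them.

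Fat1 and Fat4 were the members called at 20 weeks, and the sequence before a RefSeq transcript start of each is shown for that reason. RefSeq (GRCm38.p6) windows of 250 bases were matched for 4 of the 6 genes. The motif GGAATG, the core letters bound by the Hippo effectors of the TEAD family, was searched on both strands and is in capitals. It was found 1 time in the Fat1 window and in none of the windows of Fat4, Fat3 and Dlg5, and 12.6% of 32851 windows of the same length held it. The Fat1 stretch lies at chr8:44949958-44950195 on the plus strand, without its last 12 bases, which belong to an exon of another transcript, and the Fat4 stretch at chr3:38886690-38886939 on the plus strand.
Fat1: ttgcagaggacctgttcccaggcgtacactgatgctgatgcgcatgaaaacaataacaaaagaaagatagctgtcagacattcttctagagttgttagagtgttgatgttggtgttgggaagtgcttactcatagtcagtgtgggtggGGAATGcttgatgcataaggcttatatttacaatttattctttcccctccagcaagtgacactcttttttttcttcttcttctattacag
Fat4: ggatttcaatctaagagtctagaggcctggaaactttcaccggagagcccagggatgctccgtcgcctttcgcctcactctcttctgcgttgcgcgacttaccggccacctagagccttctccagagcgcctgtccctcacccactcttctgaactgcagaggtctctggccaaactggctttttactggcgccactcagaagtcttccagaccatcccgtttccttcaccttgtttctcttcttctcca
The Fat1 window precedes 2 of 6 GENCODE M21 transcripts, and the gene's GENCODE start lies 14761 bases further upstream. The window thus lies inside the gene, and 1 GENCODE transcript starts upstream of it. Its motif and CpG count therefore do not describe the sequence before the gene's GENCODE start. The Fat4 window precedes the GENCODE start directly. CpG dinucleotides numbered 2 in the Fat1 window, 11 in the Fat4 window, 6 in the Dlg5 window and 27 in the Fat3 window, where the median of all windows was 6.

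The members spanned more than 3 orders of magnitude per gene length. In FPKM, the authors' deposited level per transcript length and depth, Fat1 was highest in each group: 28.9 ± 2.84 in knockouts and 19.1 ± 3.23 in controls at 20 weeks, and 19.0 ± 5.37 in knockouts and 19.5 ± 10.1 in controls at 28 weeks (SD, n = 3 each). Fjx1 and Dlg5 followed, with group means of 8.69 to 10.8 FPKM and 7.18 to 11.3 FPKM, and could not be ordered beyond their spread. Fat4 came next in 3 of the groups, with 0.613 ± 0.1 FPKM in knockouts and 0.22 ± 0.0681 in controls at 20 weeks, and 0.419 ± 0.302 in knockouts at 28 weeks. In controls at 28 weeks it was at 0.105 ± 0.00814 FPKM, below Dchs1 at 0.129 ± 0.0197 FPKM. Fat3 was near the limit of detection, with group means of 0.00936 to 0.0149 FPKM and 1 to 17 reads per library. The family's receptor transcripts were thus almost all Fat1, which made up 96.4% to 99.6% of the summed FPKM of Fat1, Fat3 and Fat4 in every library.

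**Figure D1:**
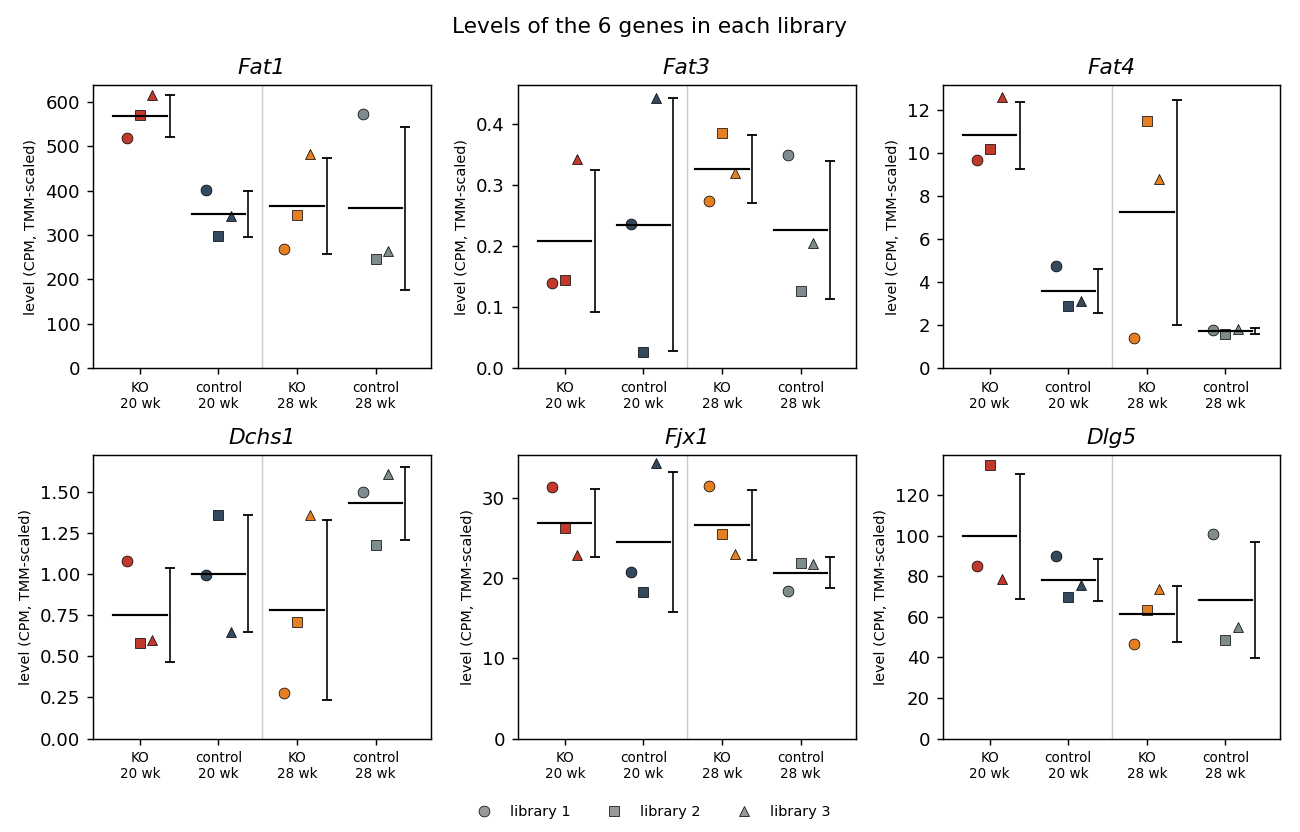
Level of each gene in every library (CPM, TMM-scaled over 12 libraries; linear axes from 0) in knockout (KO) and control groups at 20 and 28 weeks; lines are means and bars ±1 SD (n = 3). Fat1 and Fat4 of the 20-week knockouts lie above all controls of that age, and at 28 weeks Fat4 is at 1.43 CPM in knockout library 1 and at 11.5 and 8.8 CPM in knockout libraries 2 and 3.

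The first comparison asks how the Nsd2 knockout altered these genes at the early stage. At 20 weeks the receptors Fat1 and Fat4 rose in the knockouts, and the ligand, the kinase and the scaffold were not called. That is 2 of 5 tested members called, both higher, where 9.92% of the 14853 genes tested were called, 4.79% higher and 5.13% lower (edgeR quasi-likelihood test, adjusted p below 0.05 over all genes tested). Fat3 did not pass the filter on low counts and was not tested. The median log2 fold change of all genes tested was 0.01.

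Fat1, a giant cadherin that binds Ena/VASP actin regulators and is needed for normal foot processes in mice, lies on chromosome 8 at 44935447 to 45052257 on the plus strand (GENCODE M21, GRCm38), with 31 exon blocks. At 20 weeks knockout libraries 1 to 3 held 518, 571 and 614 CPM, against 402, 298 and 342 CPM in control libraries 1 to 3. The groups did not overlap, which held for 32.2% of all genes tested, upward for 16.2% and downward for 16%. The rise was 1.61-fold (log2 0.69, SE 0.17, n = 3 per group, adjusted p = 0.0387 with edgeR). In the same libraries 8 of 14 podocyte markers were called higher and 0 lower, with a sum of 3040 to 4230 CPM in knockouts and 1300 to 2270 CPM in controls. The part of these markers in the Fat1 result was not tested. Its call held without knockout library 1 (adjusted p = 0.0402) and ended without control 1 (0.0598), 2 (0.147) or 3 (0.102) or knockout 2 (0.0865) or 3 (0.113), with log2 fold changes of 0.61 to 0.77. It also ended with a filter of 1 CPM in 3 libraries (0.0567), with limma on the FPKM values (0.0541 and 0.0536 at pseudocounts of 0.1 and 1), and in the model of all 12 libraries (0.221).

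Fat4, the receptor that pairs with Dchs1, lies on chromosome 3 at 38886940 to 39011985 on the plus strand, with 17 exon blocks. Knockout libraries 1 to 3 held 9.69, 10.2 and 12.6 CPM at 20 weeks, against 4.76, 2.88 and 3.12 CPM in control libraries 1 to 3, from 349, 352 and 441 reads against 182, 106 and 120. No knockout library came near the controls. The rise was 2.98-fold (log2 1.57, SE 0.28, n = 3 per group, adjusted p = 0.0128 with edgeR), higher than the log2 fold change of 97.7% of genes tested. It was called without each of 4 libraries and not without control 2 (log2 1.45, adjusted p = 0.0553) or knockout 3 (1.47, 0.0562), nor in the model of all 12 libraries (1.54, 0.0978). On log2 of FPKM + 1 the difference was 0.4 (limma adjusted p = 0.0248), since that scale understates changes of low genes. In GENCODE, 8.68% of the exon bases of Fat4 are shared with genes on the other strand. Of these C230034O21Rik had at most 8 reads in a library. Gm43539 was listed at neither age, so its reads cannot be seen. No source used here gives the strand setting of the counting.

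Smooth muscle, pericyte and mesangial markers were higher in the 20-week knockouts, as Fat4 was. Of 12 such markers 10 were called higher at 20 weeks and 0 lower, and their sum was 10100 to 14200 CPM in knockouts against 4540 to 4940 CPM in controls. Fibroblast markers summed to 2580 to 3920 CPM in knockouts and 431 to 1550 CPM in controls, with 2 of 6 tested called higher. Nearly all of that sum was the collagens Col1a1, Col1a2 and Col3a1. Dcn was at 5.56 to 11.3 CPM in knockouts and 0.602 to 0.87 CPM in controls. Pdgfra went the other way, at 1.37 to 3.36 CPM in knockouts and 2.52 to 4.95 CPM in controls, with overlap. Fbln1 and Mfap4 overlapped too, and Lum was at 0 in 9 of the 12 libraries. Podocyte markers were higher as well, at 3040 to 4230 CPM in knockouts and 1300 to 2270 CPM in controls, with 8 of 14 called higher. Of 12 tested markers of tubule and other epithelium 4 were called lower and 0 higher. The part of these markers in the Fat4 result was not tested, and in bulk RNA fewer cells of a type and less RNA per cell cannot be told apart.

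Dchs1, which encodes the ligand Dachsous 1, lies on chromosome 7 at 105752990 to 105787654 on the minus strand. It was read 20 to 39 times in knockout libraries and 25 to 50 times in control libraries at 20 weeks. Knockout libraries 1 to 3 held 1.08, 0.578 and 0.599 CPM, and control libraries 0.995, 1.36 and 0.65 CPM, so the groups overlapped. The log2 fold change was -0.43 (SE 0.45, n = 3 per group, edgeR adjusted p = 0.639). For the knockout library with 20 reads, counting error alone allows 12.2 to 30.9 reads (exact 95% Poisson interval, which covers counting error only).

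Fjx1, the mouse homologue of Four-jointed, lies on chromosome 2 at 102449366 to 102452499 on the minus strand, as 1 exon. Its levels at 20 weeks were 31.4, 26.3 and 22.9 CPM in knockout libraries and 20.8, 18.2 and 34.4 CPM in control libraries (log2 0.11, SE 0.27, n = 3 per group, edgeR adjusted p = 0.849). Control library 3 was the highest of all 6, and without it the log2 fold change was 0.45 (adjusted p = 0.335). Dlg5, a membrane-associated guanylate kinase scaffold that binds Hippo kinases in human cells, lies on chromosome 14 at 24133953 to 24245920 on the minus strand. It was at 85.2, 135 and 78.7 CPM in knockouts and 89.8, 69.7 and 75.6 CPM in controls (log2 0.32, SE 0.23, n = 3 per group, adjusted p = 0.445). Knockout library 2 alone stood above the control range, and without it the value was 0.06 (adjusted p = 0.874). Fat3, on chromosome 9 at 15910189 to 16501285 on the minus strand, had 5, 5 and 12 reads in knockouts and 9, 1 and 17 in controls. The groups overlapped, and Fat3 was not tested at this age.

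The second comparison asks the same at the advanced stage. At 28 weeks all 6 members were tested and 0 were called with edgeR, where 21.2% of 15011 genes were, 9.33% higher and 11.9% lower. At an unadjusted p below 0.05 there were 2 members, Fat4 and Fjx1, where 34.8% of all genes tested were, so 2 of 6 is near the background. DESeq2 called 1 member, Fat4, and 24.1% of the 17729 genes to which it gave an adjusted p. Fat3 was tested there because 3 knockout libraries, and only 1 control library, were above the 0.27 CPM that the filter needed. The median log2 fold change of all genes tested was 0.07.

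Fat4 split the 28-week knockouts. Knockout library 1 held 1.43 CPM, and knockout libraries 2 and 3 held 11.5 and 8.8 CPM, against 1.8, 1.58 and 1.84 CPM in controls 1 to 3. The highest and the lowest knockout differed 8.02-fold, while the controls differed 1.16-fold. Over all libraries the log2 fold change was 2.08 (SE 0.69, n = 3 per group, edgeR adjusted p = 0.0817). Without knockout library 1 it was 2.54 (adjusted p = 0.00466), and without each of the other 5 libraries it was 1.56 to 2.12 and not called (adjusted p = 0.172 to 0.238). The difference was called over all libraries by DESeq2 (2.08, adjusted p = 0.00695) and in the model of all 12 libraries (2.05, 0.0263). Knockout library 1 also had the highest epithelial marker sum of the knockouts, with or without Krt8, and the lowest sum of smooth muscle, pericyte and mesangial markers, 6930 CPM against 15500 and 12500 CPM in knockouts 2 and 3. The controls lay at 3060 to 3420 CPM, and 5 of 12 of these markers were called higher and 0 lower. Of the 6930 CPM in knockout library 1, 2280 CPM was Acta2 and 4000 CPM was Tagln. In that library Acta2, Tagln, Rgs5, Cnn1 and Des lay above every control of that age. Pdgfrb, Cspg4, Itga8, Notch3 and Myh11 lay below every control, and Gata3 and Mcam within the control range. The level of Myh11, a smooth muscle myosin, was 2.34 CPM in knockout library 1. It was 73.2 and 72.7 CPM in the other knockouts and 3.61 to 8.69 CPM in controls. Leukocyte markers summed to 590 to 844 CPM in 28-week knockouts and 78.5 to 97.8 CPM in controls, with 3 of 8 called higher (Lyz2, Tyrobp and Cd52) and 0 lower. Most of that sum was Lyz2, at 490 to 798 CPM in knockouts and 47.3 to 52.6 CPM in controls, and the other 7 summed to 46.1 to 101 CPM in knockouts and 31.2 to 45.1 CPM in controls. Fibroblast markers summed to 1200 to 2810 CPM in knockouts and 486 to 1250 CPM in controls, mostly collagens, with 2 of 6 tested called higher and 1, Pdgfra, called lower (0.274 to 2.38 CPM in knockouts, 7.51 to 8.16 CPM in controls). Endothelial markers, at 51.7 to 119 CPM in knockouts and 79.1 to 88.6 CPM in controls, had 0 of 8 called. Podocyte markers summed to 1010 CPM in knockout library 1, below every control, and to 2980 and 2260 CPM in knockouts 2 and 3. The controls lay at 1760 to 3200 CPM, and of 14 podocyte markers 0 were called higher and 2 lower. The part of these markers in the Fat4 result was not tested.

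**Figure D2:**
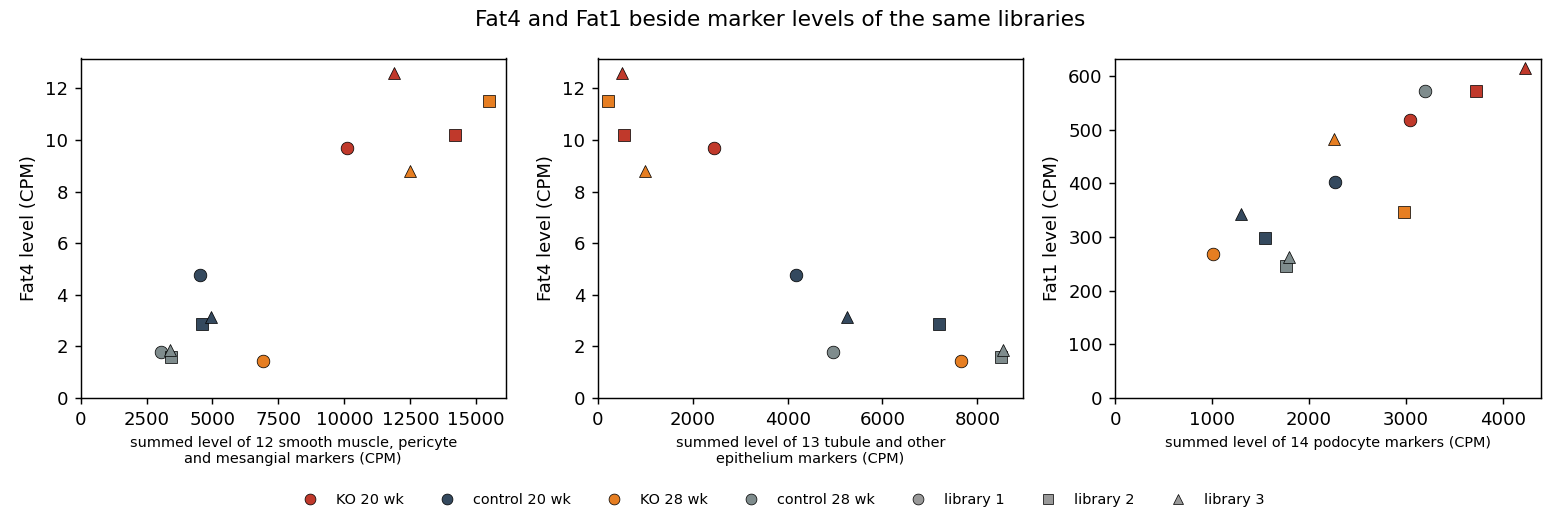
Fat4 level beside the summed level of 12 smooth muscle, pericyte and mesangial markers (left) and of 13 markers of tubule and other epithelium (middle), and Fat1 level beside that of 14 podocyte markers (right), each point 1 library (CPM). The 5 libraries with more than 8 CPM of Fat4 are all knockouts, and knockout library 1 at 28 weeks lies with the controls in Fat4 and, at 7660 CPM of which 5380 CPM was Krt8, in its epithelial sum.

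The direction of Fat1 at 28 weeks depended on which library was left out. Knockout libraries 1 to 3 held 268, 346 and 482 CPM, against 572, 246 and 263 CPM in controls 1 to 3, and control 1 was the highest of all. The log2 fold change was 0.03 (SE 0.39, n = 3 per group, edgeR adjusted p = 0.968). It was 0.57 without control 1 (adjusted p = 0.193) and -0.2 and -0.17 without controls 2 and 3 (0.799 and 0.847). Without knockouts 1, 2 and 3 it was 0.21, 0.07 and -0.23 (0.774, 0.951 and 0.736). With the counts of controls 2 and 3 summed it was -0.18 (0.821). The same control 1 had the highest podocyte marker sum of the 28-week libraries, 3200 CPM, where the sums were 1010 to 2980 CPM in knockouts and 1760 to 3200 CPM in controls. At this age 0 of 14 podocyte markers were called higher and 2 lower. Dlg5 had the same order among the controls: 46.8, 63.2 and 73.9 CPM in knockouts and 101, 48.8 and 55.1 CPM in controls (log2 -0.14, SE 0.33, adjusted p = 0.81, and 0.29 with adjusted p = 0.387 without control 1).

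Fjx1 was the single member whose genotypes did not overlap at 28 weeks, which held for 42% of all genes tested, upward for 18.3% and downward for 23.7%. Knockout libraries held 31.5, 25.5 and 23.0 CPM and controls 18.4, 21.9 and 21.7 CPM. The log2 fold change of 0.40 was not called (SE 0.17, edgeR adjusted p = 0.14, n = 3 per group). Dchs1 had 0.274, 0.706 and 1.36 CPM in knockouts and 1.5, 1.18 and 1.61 CPM in controls, from 9, 22 and 47 reads against 60, 47 and 63. Knockout 3 lay within the control range, and the log2 fold change of -0.85 was not called (SE 0.54, adjusted p = 0.329). Without knockout 3 it was -1.54 (adjusted p = 0.0993), and without knockout 1 -0.45 (0.482). Fat3 had 9, 12 and 11 reads in knockouts and 14, 5 and 8 in controls (log2 0.54, SE 0.50, adjusted p = 0.501).

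**Figure D3:**
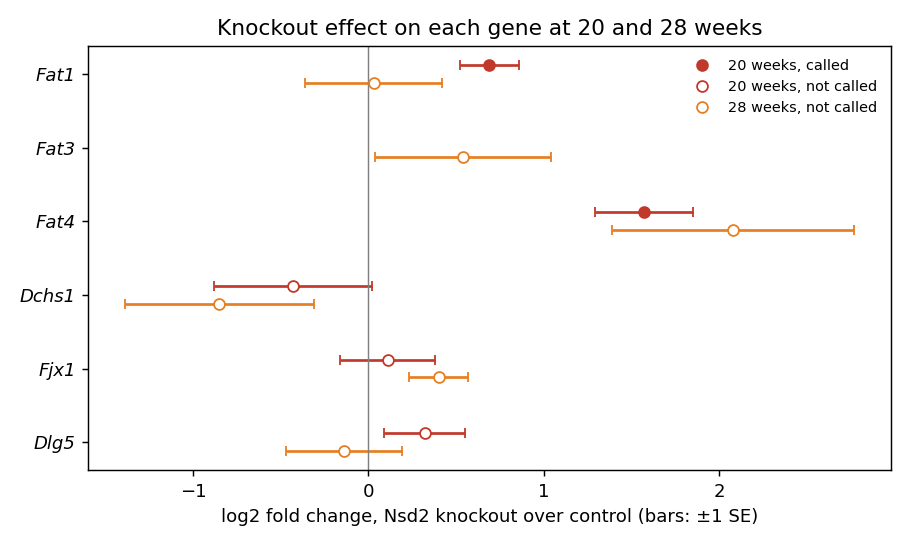
Log2 fold change of each gene, knockout over control, at 20 weeks (red) and 28 weeks (orange), with bars of ±1 SE from edgeR (n = 3 per group); filled points passed an adjusted p of 0.05, and Fat3 was tested at 28 weeks only. Fat1 (0.69) and Fat4 (1.57) at 20 weeks are the filled points.

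Setting receptor against ligand within a library removes differences in depth and scaling. The ratio of Fat4 to Dchs1 in FPKM was 5.99, 11.8 and 14 in 20-week knockouts, against 3.2, 1.42 and 3.21 in controls. At 28 weeks it was 3.49, 10.9 and 4.31 in knockouts, against 0.803, 0.897 and 0.764 in controls. The genotypes did not overlap at either age, and knockout library 1 of 28 weeks, whose Fat4 was at the control level, stood above all controls, with Dchs1 at 9 reads (95% interval 4.12 to 17.1). This ratio was chosen after its values were seen, and 4.52% of 14566 genes had a ratio to Dchs1 that separated the genotypes upward at both ages. Fat4 per 1000 Fat1 was 20.8, 19.8 and 22.8 in 20-week knockouts and 13.2, 10.7 and 10.1 in controls, and 5.94, 36.9 and 20.3 in 28-week knockouts and 3.49, 7.16 and 7.79 in controls. There the groups overlapped at 28 weeks through knockout library 1.

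**Figure D4:**
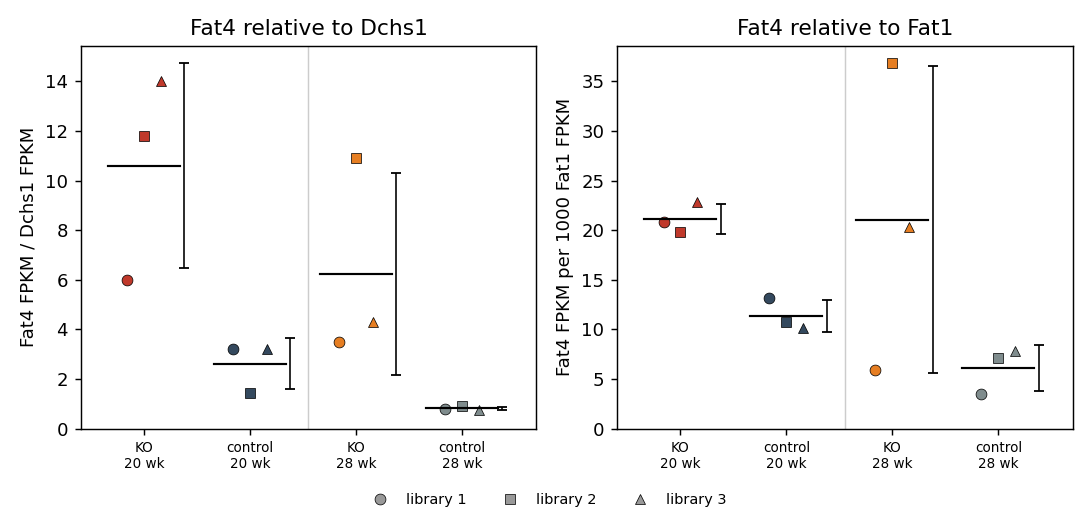
Ratio of Fat4 to Dchs1 (left) and of Fat4 to Fat1, per 1000 (right), from FPKM in each library, with means (lines) and ±1 SD (bars, n = 3). All 6 knockout libraries lie above the controls of their age on the left, from 3.49 to 14, and knockout library 1 of 28 weeks overlaps the controls on the right.

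Whether the knockout effect differed between the ages was tested in a model of all 12 libraries, in which age coincides with the deposited table. No member was called: the change of effect, 28 weeks minus 20 weeks, was 0.52 for Fat4 (SE 0.76, edgeR adjusted p = 0.808), -0.65 for Fat1 (SE 0.45, 0.633), -0.42 for Dchs1 (SE 0.74, 0.835), 0.29 for Fjx1 (SE 0.33, 0.757), -0.44 for Dlg5 (SE 0.41, 0.707) and 0.73 for Fat3 (SE 1.05, 0.805). Of 15662 genes 0% were called in this contrast, with 1428 (9.12%) at an unadjusted p below 0.05 and 25 (0.155%) called by DESeq2, and no member was among either. A call of Fat1 at 20 weeks and none at 28 weeks is therefore not shown to be a difference between the ages.

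The change with age within a genotype gave no call among the members either, where 0% of 15662 genes were called with edgeR. In knockouts, 28 against 20 weeks, the lowest values were those of Dlg5 (log2 -0.63, SE 0.29, adjusted p = 0.443) and Fat1 (-0.59, SE 0.32, 0.476), and Fat4 was at -0.53 (SE 0.54, 0.671). In controls Fat4 had 1.74 ± 0.139 CPM at 28 weeks and 3.59 ± 1.02 CPM at 20 weeks (log2 -1.05, SE 0.55, unadjusted p = 0.0847, adjusted p = 1). Dchs1 had 1.43 ± 0.224 CPM at 28 weeks and 1.0 ± 0.355 CPM at 20 weeks in controls (log2 0.51, SE 0.51, adjusted p = 1). At an unadjusted p below 0.05 there were 1759 genes (11.2%) for knockouts and 466 (2.98%) for controls, none of them a member. DESeq2 called 36 genes (0.201%) for knockouts and 1 (0.0045%) for controls, again no member.

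The genes around the pathway were counted in 6 lists. Of all genes tested, 4.79% rose and 5.13% fell at 20 weeks and 9.33% rose and 11.9% fell at 28 weeks, with median log2 fold changes of 0.01 and 0.07. Among relatives and partners, 1 of 17 tested rose and 1 fell at 20 weeks, and 1 of 16 rose and 3 fell at 28 weeks (medians 0.08 and -0.22). With 1 library left out, the fallen numbered 0 to 2 at 20 weeks and 3 to 4 at 28 weeks, and the risen 0 to 1 at both. The 2 mouse homologues of Lowfat, a Drosophila protein that binds the tails of Fat and Dachsous, moved apart at 20 weeks. Lix1l rose (78.4 ± 16 against 40.0 ± 3.25 CPM, log2 0.95, adjusted p = 0.0218) and Lix1 fell (0.313 ± 0.0547 against 1.24 ± 0.201 CPM, log2 -2, 0.0191). Lix1l rose at 28 weeks as well (79.4 ± 32.3 against 28.9 ± 0.267 CPM, log2 1.49, 0.0183). The genes that fell at 28 weeks were Amotl1, an angiomotin family protein that FAT4 restrains in mouse heart (162 ± 40.7 against 358 ± 8.32 CPM, log2 -1.12, adjusted p = 0.0083), the kinase Mark2 (-0.89, 0.0055) and the actin regulator Evl (-0.89, 0.00868). Those 3 calls held without each library. The 13 epithelial markers summed to 213 to 7660 CPM in the same knockouts and 4960 to 8550 CPM in controls, with overlap. Of them 2 were called lower. Without Krt8, a sum chosen after seeing the data, they were at 184 to 2280 CPM against 4860 to 6130 CPM. The part of these markers in the 3 results was not tested. The calls of Lix1l and Lix1 at 20 weeks held only without control 3 or knockout 1 (adjusted p up to 0.0901 and 0.0821 without the others), and that of Lix1l at 28 weeks only without knockout 1 or 2 (up to 0.0738 otherwise, and not with controls 2 and 3 summed). The paralogues Fat2 and Dchs2, named after their values were seen, had 0 to 8 and 0 to 32 reads per library, and Dchs2 was not called at 20 weeks (log2 1.44, adjusted p = 0.124).

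Planar cell polarity genes, the second system that aligns cells in a tissue plane, had 1 of 20 risen at 20 weeks and 1 risen with 6 fallen of 19 at 28 weeks (medians 0.10 and -0.18), where 11.9% of all genes fell at 28 weeks. With 1 library left out the fallen numbered 0 to 1 at 20 weeks and 1 to 6 at 28 weeks. Celsr1, an atypical cadherin of that system, fell to 3.27 ± 1.52 CPM in 28-week knockouts against 29.2 ± 7.89 CPM in controls (log2 -3.14, SE 0.42, adjusted p = 0.00618), also without each library. Its partners Vangl2 (-1.06, 0.0236) and Fzd6 (-0.59, 0.0237) fell, and the cilium gene Wdpcp rose (0.75, 0.0141). Without 1 library the calls of Vangl2 ended when any control was left out (up to 0.072), that of Fzd6 held only without knockouts 1 or 3 (up to 0.0987), and that of Wdpcp ended without control 2 or 3 (up to 0.0737). With the counts of controls 2 and 3 summed all 3 ended (0.0686 to 0.0893). The 13 epithelial markers summed to 213 to 7660 CPM in the same 28-week knockouts and 4960 to 8550 CPM in controls, with overlap. Without Krt8, a sum chosen after seeing the data, they were at 184 to 2280 CPM against 4860 to 6130 CPM. The part of these markers in the 28-week results was not tested. At 20 weeks Prickle2 rose (log2 0.85, 0.0368), a call that held only without knockout 1 (up to 0.119 otherwise).

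Apical and basal polarity genes had 2 fallen of 19 at 20 weeks and 1 risen with 8 fallen of 18 at 28 weeks (medians -0.05 and -0.71), where 5.13% and 11.9% of all genes fell. With 1 library left out the fallen numbered 1 to 4 at 20 weeks and 4 to 10 at 28 weeks. The apical determinant Crb3 fell at 20 weeks to 3.11 ± 0.598 CPM in knockouts against 35.7 ± 15.3 CPM in controls (log2 -3.54, SE 0.36, adjusted p = 0.00272). That call held without each library and ended in the model of all 12 libraries (0.0639). The kinase Prkcz fell too (-0.97, 0.0287), a call that held only without control 3 or knockout 1 (up to 0.131 otherwise). At 28 weeks the basolateral genes Llgl2 (34.6 ± 5.06 against 169 ± 14.5 CPM, log2 -2.26, adjusted p = 0.002), Scrib (-1.01, 0.00489) and Llgl1 (-0.96, 0.00508) and the junction scaffold Patj (-2.59, 0.0021) fell, and each call held without each library. Markers of tubule and other epithelium differed in the same libraries, with 4 of 12 called lower at 20 weeks and 2 of 13 at 28 weeks, and their part in these results was not tested.

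Hippo core genes had 0 called of 21 at 20 weeks with edgeR, with 3 at an unadjusted p below 0.05, where 25% of all genes were, and 1 called lower by DESeq2, which called 13.9% of the 17326 genes to which it gave an adjusted p (list median 0.07). Tead4, a DNA-binding partner of YAP, was at log2 -1.10 (adjusted p = 0.0739) and the kinase Lats2 at 0.54 (0.165). At 28 weeks 2 of 21 fell and 0 rose (median -0.10), where 11.9% of all genes fell. With 1 library left out 2 to 4 fell. The 2 called with all libraries were Wwc1, which encodes the upstream regulator KIBRA, and Tead4. Wwc1 was at 71.8 ± 24.4 against 447 ± 5.9 CPM (log2 -2.61, adjusted p = 0.00324) and Tead4 at 3.07 ± 0.453 against 10.7 ± 0.83 CPM (-1.76, 0.00426). Both calls held without each library. The 13 epithelial markers summed to 213 to 7660 CPM in the same knockouts and 4960 to 8550 CPM in controls, with overlap. Without Krt8, a sum chosen after seeing the data, they were at 184 to 2280 CPM against 4860 to 6130 CPM. The part of these markers in the Wwc1 and Tead4 results was not tested.

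In the list of classical and related cadherins Cdh11, a cadherin of mesenchymal cells, rose at both ages. It was at 673 ± 166 CPM in knockouts and 212 ± 80.2 CPM in controls at 20 weeks (log2 1.65, adjusted p = 0.0177) and at 510 ± 60.4 CPM in knockouts and 174 ± 23.2 CPM in controls at 28 weeks (1.57, 0.00343). The 20-week call ended without control 1 (0.0992) or knockout 3 (0.065). It was 1 risen of 12 with 0 fallen at 20 weeks and 1 risen with 5 fallen at 28 weeks (medians -0.28 and -0.66). With 1 library left out the fallen numbered 0 to 5 at 20 weeks and 3 to 5 at 28 weeks, so these counts do not show that the ages differed. The fallen included Cdh3 (-3.62, 0.00376), the kidney cadherin Cdh16 (-3.24, 0.0082) and Cdh1, which encodes E-cadherin (-4.95, 0.0163). Cdh16 is itself 1 of the markers of tubule and other epithelium, of which 2 of 13 were called lower in the same comparison, and the part of those markers in these results was not tested. Of 12 other large cadherins and protocadherins, 1 rose and 1 fell at 20 weeks and 1 rose and 3 fell at 28 weeks (medians 0.45 and -0.50). The fallen numbered 0 to 3 at 20 weeks and 2 to 4 at 28 weeks with 1 library left out. Pcdh18 rose at 20 weeks (0.94, 0.0269) and Pcdh19 at 28 weeks (0.97, 0.0109), while Cdh23 fell at both (-2.26, 0.0414, and -2.76, 0.0303) and Pcdh1 (-1.19, 0.00749) and Cdhr5 (-4.57, 0.00758) fell at 28 weeks. Cdhr5 was at 0.0208 ± 0.0181 CPM in 28-week knockouts and 0.571 ± 0.133 CPM in controls, and was not tested at 20 weeks. Its knockout level lay below the 0.0769 CPM that an unread gene could reach, so the size of its fall is uncertain. The calls of Cdh3, Cdh16, Cdh1, Pcdh1 and Cdhr5 held without each library. That of Pcdh18 held only without knockout 1 or 2 (up to 0.127 otherwise), that of Cdh23 at 20 weeks only without knockout 1 (up to 0.128) and at 28 weeks without any 1 knockout but no control (up to 0.088), and that of Pcdh19 ended without control 2 or 3 (0.0519 and 0.0558). Both 28-week calls, of Cdh23 and Pcdh19, also ended with controls 2 and 3 summed.

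The genes whose levels followed each member most closely were found by Pearson's r of log2 CPM over the 12 libraries among 10550 genes, and are a description, since these libraries share 4 groups and their cell mixture. Fat4 was closest to Myh11 (r = 0.955), the guanylate cyclase subunit Gucy1a1 (0.952) and the Arf exchange factor Cyth3 (0.951). With the 4 group means removed these were 0.942, 0.972 and 0.879. Fat1 was closest to the laminin chain Lamc1 (0.991), the ephrin Efnb2 (0.99) and the corepressor Tle4 (0.979), and 0.984, 0.989 and 0.964 with group means removed. Dlg5 was closest to Chpf (0.986), Sec16a (0.977) and Selenon (0.972), Dchs1 to Adgrf5 (0.913), Ankrd33b (0.911) and Ppp2r1b (0.911), and Fjx1 to Relt (0.953), Angptl2 (0.899) and Klhl22 (0.883). Fat3, with few reads, reached 0.754 with Fam171b, 0.744 with Rabgap1l and 0.741 with Zfp111. Of the 15 pairs of members, Fat1 and Dlg5 were the most alike, at 0.83 over the 12 libraries and 0.83 with group means removed. Fat4 and Dchs1 were at -0.13 over the 12 libraries and at 0.65 with group means removed.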

How the data were processed

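RNA was sequenced from primary podocytes of 12 libraries in 4 groups, taken from the labels' titles. The authors deposited raw read counts per gene symbol and FPKM values per age, per the file headers. Per the submitters' processing notes the build was GRCm38 (mm10). No source used here gives the aligner, counter, strand setting or annotation. FPKM divides each count by a fixed gene length and the column total, as a comparison of the deposited files showed.

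Within each age, counts were scaled by TMM, filtered with the defaults of filterByExpr (minimum count 10, minimum total 15) and tested by quasi-likelihood with no block (edgeR 4.0.16, R 4.3.3). This gave every adjusted p (Benjamini-Hochberg, over the whole table, called below 0.05) unless another tool is named. SE is log2 fold change over the root of the F statistic. The contrasts of age used 1 model of 12 libraries over the 22290 genes in both tables. Alternatives used DESeq2 1.42.0 and limma 3.58.1 on log2(FPKM + 0.1) and log2(FPKM + 1), with 0.1 FPKM in 3 libraries. The script was tested on simulated data. With 3 counts as the limit that 0 allows, an unread gene could reach 0.0769 to 0.0955 CPM. Coordinates are from GENCODE M21, windows from RefSeq.

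The members and lists were chosen with earlier results of these data known. Named genes are the members, Nsd2, the called genes of a list by smallest p, at most 4 (where none was called, 2 as values) and the 3 genes most like each member with a mean of at least 5 CPM, passing over predicted genes. No within-batch value could be had, since the labels do not divide the libraries into batches. A difference in handling between the deposited tables, which coincide with age, was not tested.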

Additional observations from a re-analysis of the deposited data

How the results depend on the processing

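At 20 weeks the 2 called members became 1 with a filter of 1 CPM in 3 libraries, with limma on FPKM at either pseudocount and with the replicate block, 0 in the model of all 12 libraries, and 0 to 2 with 1 library left out. The count over all genes was 1473 and became 2401 with DESeq2 and 517 to 2023 with 1 library left out. At 28 weeks the 0 called members became 1 (Fat4) with DESeq2, in the model of all 12 libraries or without knockout 1, so that leaving out 1 library gave 0 to 1. The count over all genes was 3183 there and became 332 with the replicate block, 1299 with controls 2 and 3 summed and 1266 to 3374 with 1 library left out. In the contrasts of age DESeq2 called 25 genes for the change of effect, 1 for controls and 36 for knockouts, and leaving out 1 library gave 0 to 4 for knockouts, with 0 members called in each.

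Same-numbered knockouts and controls had correlations of their deviations from the group means of -0.133, 0.303 and -0.194 at 20 weeks. At 28 weeks these were -0.545, -0.082 and -0.444. Differently numbered ones had -0.348 to 0.419 at 20 weeks and -0.451 to 0.562 at 28 weeks. With 3 libraries per group such correlations constrain each other, so they cannot decide whether the replicate numbers pair the libraries. With the replicate block 1164 genes and 1 member were called at 20 weeks (Fat4, adjusted p = 0.0327; Fat1, 0.0616), and 332 genes and 0 members at 28 weeks. Of the calls named from the lists, the block ended 4 of 8 at 20 weeks (Prickle2, Lix1, Pcdh18 and Cdh23, adjusted p = 0.0571 to 0.0725) and 15 of 22 at 28 weeks (0.0534 to 0.114), among them Mark2 (0.0597), Amotl1 (0.0605), Evl (0.0724), Scrib (0.0566), Llgl1 (0.0613), Tead4 (0.0534) and Cdh1 (0.0633). It also ended that of Nsd2 at 28 weeks (0.0526).

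Among the genes named from the lists, the model of all 12 libraries ended the calls of Prickle2 (adjusted p = 0.0836), Prkcz (0.063), Pcdh18 (0.081) and Crb3 at 20 weeks and of Fzd6 (0.101) and Pcdh19 (0.087) at 28 weeks. Limma on log2(FPKM + 1) ended those of Prickle2 (0.0662), Lix1 (0.0718), Pcdh18 (0.0534) and Cdh23 (0.0824) at 20 weeks, and that of Prickle2 also ended on log2(FPKM + 0.1) (0.101) and with no filter (0.0564).

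Directions of members that were not called turned in some runs. With controls 2 and 3 summed Fat1 at 28 weeks was -0.18. Fjx1 in knockouts by age was -0.01 without a filter and -0.02 without both knockout libraries 1, an alternative chosen after seeing the data, under which the change of effect of Dchs1 was 0.31. Fat3 in controls by age was 0.14 with the replicate block. With 1 library left out, values ran from -0.04 to 0.45 for Fjx1 at 20 weeks, -0.23 to 0.57 for Fat1 and -0.35 to 0.29 for Dlg5 at 28 weeks. For the change of effect they ran from -0.08 to 1.31 for Fat3, -0.02 to 0.97 for Fat4 and -0.03 to 0.46 for Fjx1. By age in controls they ran from -0.46 to 0.28 for Fat1, -0.56 to 0.76 for Fat3, -0.41 to 0.07 for Fjx1 and -0.61 to 0.01 for Dlg5, and by age in knockouts from -0.56 to 0.48 for Dchs1 and -0.13 to 0.2 for Fjx1. Fat4 and Fat1 at 20 weeks and Fat4 at 28 weeks kept their direction in each alternative run. So did uncalled members in the runs that fitted them: Dchs1 at both ages, Dlg5 at 20 weeks, and Fjx1 and Fat3 at 28 weeks. The cause of the turns in direction was not tested. Depth limits Fat3 and Dchs1, with as few as 1 and 9 reads in a library.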
